A study of Mus musculus with 8 samples.

Results

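WFS1 peaks at the start sites of noncoding RNA genes were analyzed in proliferating C2C12 cells, an established line of mouse muscle precursors (myoblasts). The chosen peaks lay on autosomes, had their centre within 1 kb of the 5′ end of a lincRNA, antisense, processed transcript or miRNA gene, and lay more than 1 kb from every protein-coding 5′ end. Of 22292 combined peaks, 22020 lay on autosomes, and 573 of these (2.60%) met the rule, with 503 noncoding genes nearest to them. From the called lists the peaks were chosen by position alone, so signal entered the choice only through peak calling. The choice was made with earlier results of these data known.

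The study performed WFS1 ChIP-seq in wildtype proliferating myoblasts with an antibody against endogenous WFS1, after dual crosslinking with DSG and formaldehyde. Chromatin was sheared by 30 cycles of sonication, and a part of the same immunoprecipitate was sheared for 6 further cycles, giving a library of 36 cycles. The remaining 6 of 8 libraries, which are inputs and samples of WFS1 knockout cells with stable FlagTag WFS1 expression, were not used here. Both libraries used came from wildtype cells and from 1 immunoprecipitation, with 1 library per sonication condition, so no replicate error could be measured and no p-value is given. The files hold positions without height or read counts, so the depth is unknown and the labelled cell type could not be checked against markers. Percentages carry 95% Wilson intervals and differences between them 95% Newcombe intervals, both of which cover counting error over peaks or start sites only.

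WFS1 is a membrane protein of the endoplasmic reticulum, which is continuous with the nuclear envelope. Long noncoding RNA genes are transcribed by RNA polymerase II from promoters or from enhancer-like elements, and many of them overlap a protein-coding gene on the opposite strand. MicroRNAs are cut from hairpins in longer transcripts, so the annotated 5′ end of a miRNA gene marks the hairpin and can lie far from the start of the primary transcript.

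The sequences below come from miRNA genes with a WFS1 peak within 1 kb and show which regulatory RNAs the peaks lie beside. Of 67 such genes, 37 had a mature sequence in the RefSeq table (GRCm38.p6), with 64 mature sequences and 62 distinct seeds. The seed, bases 2 to 8 from the 5′ end, is in capitals. Only 2 of these seeds were shared by different genes, and each pair was a neighbouring cluster reached by the same peak, namely Mir29a with Mir29b-1 and Mir132 with Mir212. The first lines give the muscle miRNA miR-206, both arms of miR-199a and the pair from the miR-29 cluster.
mmu-miR-206-3p: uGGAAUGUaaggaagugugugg
mmu-miR-199a-5p: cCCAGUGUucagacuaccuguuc
mmu-miR-199a-3p: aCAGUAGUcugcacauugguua
mmu-miR-29a-3p: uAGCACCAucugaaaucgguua
mmu-miR-29b-3p: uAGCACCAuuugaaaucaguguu
mmu-miR-132-3p: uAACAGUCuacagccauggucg
mmu-miR-21a-5p: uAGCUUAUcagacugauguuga
mmu-miR-22-3p: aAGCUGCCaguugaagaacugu
mmu-miR-30a-5p: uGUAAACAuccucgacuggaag
mmu-miR-125b-5p: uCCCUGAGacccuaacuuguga

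The central 200 bp of 5 peaks are shown as examples of the sequence found at these starts. All are the plus strand of GRCm38, and capitals mark AP-1 (TGACTCA), E-box (CAGCTG) and RUNX (ACCACA or ACCGCA) matches on either strand. They are the upstream Mir206 peak (chr1:20678035-20678234), the peak over Mir6406 (chr11:68220859-68221058), the lincRNA B430319H21Rik (chr11:63173784-63173983), Malat1 (chr19:5803144-5803343) and the CpG-rich start of Dleu2 (chr14:61682379-61682578). B430319H21Rik was chosen after its values were seen, as 1 of 5 peaks with all 3 motifs. Every window shown except that of Dleu2 holds a match, whereas 306 of the 573 peaks (53.4%) held none. The other peaks of Mir206, Malat1 and Dleu2, not shown, had no match in their central 200 bp.
Mir206: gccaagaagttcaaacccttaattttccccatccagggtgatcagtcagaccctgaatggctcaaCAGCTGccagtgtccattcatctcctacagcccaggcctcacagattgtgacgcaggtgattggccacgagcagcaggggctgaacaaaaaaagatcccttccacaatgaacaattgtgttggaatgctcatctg
Mir6406: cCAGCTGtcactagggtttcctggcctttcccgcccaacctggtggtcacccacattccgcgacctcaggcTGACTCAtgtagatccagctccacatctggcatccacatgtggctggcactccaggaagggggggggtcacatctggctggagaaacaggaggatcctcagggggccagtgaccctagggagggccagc
B430319H21Rik: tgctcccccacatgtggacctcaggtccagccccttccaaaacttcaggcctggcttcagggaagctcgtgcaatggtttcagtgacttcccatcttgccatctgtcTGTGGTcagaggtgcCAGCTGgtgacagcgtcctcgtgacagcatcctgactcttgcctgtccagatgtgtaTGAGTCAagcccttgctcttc
Malat1: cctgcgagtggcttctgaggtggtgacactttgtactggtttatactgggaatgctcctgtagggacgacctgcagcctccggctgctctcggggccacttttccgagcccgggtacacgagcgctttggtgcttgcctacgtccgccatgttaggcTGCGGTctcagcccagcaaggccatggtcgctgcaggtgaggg
Dleu2: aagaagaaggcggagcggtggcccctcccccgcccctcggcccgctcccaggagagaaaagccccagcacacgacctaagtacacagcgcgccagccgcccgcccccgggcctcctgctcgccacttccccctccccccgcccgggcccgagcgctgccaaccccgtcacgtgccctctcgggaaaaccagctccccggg
The GC content of these windows was 50% at Mir206, 62% at Mir6406, 56% at B430319H21Rik, 61.5% at Malat1 and 74% at Dleu2, and the Dleu2 window held 20 CpG dinucleotides and none of the 3 motifs.

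WFS1 peaks reached only a small part of the annotated noncoding starts. Of 10929 autosomal noncoding starts, 9564 lay more than 1 kb from every protein-coding 5′ end, and 511 of these (5.34%, 4.91 to 5.81) had a peak centre within 1 kb. For 490 of them (5.12%) that peak was 1 of the 573, and the other 21 were reached only by a peak that itself lay within 1 kb of a protein-coding 5′ end. Protein-coding starts had a peak more often, 2710 of 20807 (13.0%, 12.6 to 13.5), and the noncoding share was lower by 7.68 percentage points (interval of the difference, noncoding minus protein-coding, -8.32 to -7.03).

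The classes of noncoding RNA differed. Processed transcripts, RNAs without an open reading frame, had a peak at 52 of 501 starts (10.4%), which differed from protein-coding starts by -2.65 points (-5.07 to 0.368), an interval that includes 0. Antisense RNAs followed with 147 of 2294 (6.41%), then lincRNAs, which lie between protein-coding genes, with 244 of 4870 (5.01%), and miRNA hairpins with 68 of 1899 (3.58%). Antisense starts exceeded lincRNA starts by 1.40 points (0.263 to 2.62), and miRNA starts were below lincRNA starts by 1.43 points (difference -1.43, -2.42 to -0.331). The share also depended on the surroundings. It was 12.1% (9.23 to 15.7) where the noncoding start lay 1 to 2 kb from a protein-coding 5′ end and 7.89% at 2 to 5 kb. Farther out it was 5.15% at 5 to 20 kb, 5.58% at 20 to 100 kb and 3.75% (3.13 to 4.49) beyond 100 kb. The 47 of 388 starts with a peak at 1 to 2 kb included all 21 reached only by a peak within 1 kb of a protein-coding 5′ end. The value at 1 to 2 kb therefore rests in part on peaks of protein-coding starts. Between chromosomes the share of noncoding starts with a peak ran from 2.81% (1.49 to 5.26) on chromosome 16 to 9.34% (6.88 to 12.6) on chromosome 17.

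The presence of a peak went with the base composition of the start. A start was called CpG-rich where the 250 bases before it and 50 after it had at least 50% GC and a CpG observed/expected ratio of at least 0.6. Of CpG-rich noncoding starts, 110 of 575 (19.1%, 16.1 to 22.5) had a peak, against 401 of 8989 CpG-poor ones (4.46%, 4.05 to 4.91), a difference of 14.7 points (11.6 to 18.1). CpG-rich protein-coding starts had a peak at 21.0% (20.2 to 21.9), and CpG-rich noncoding starts differed from them by -1.90 points (-5.03 to 1.61). Among CpG-poor starts the noncoding share stayed below the protein-coding share of 7.11%, by 2.65 points (difference -2.65, -3.27 to -2.02). CpG-rich starts were 21.5% of the noncoding starts with a peak and 5.14% of those without.

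**Figure D1:**
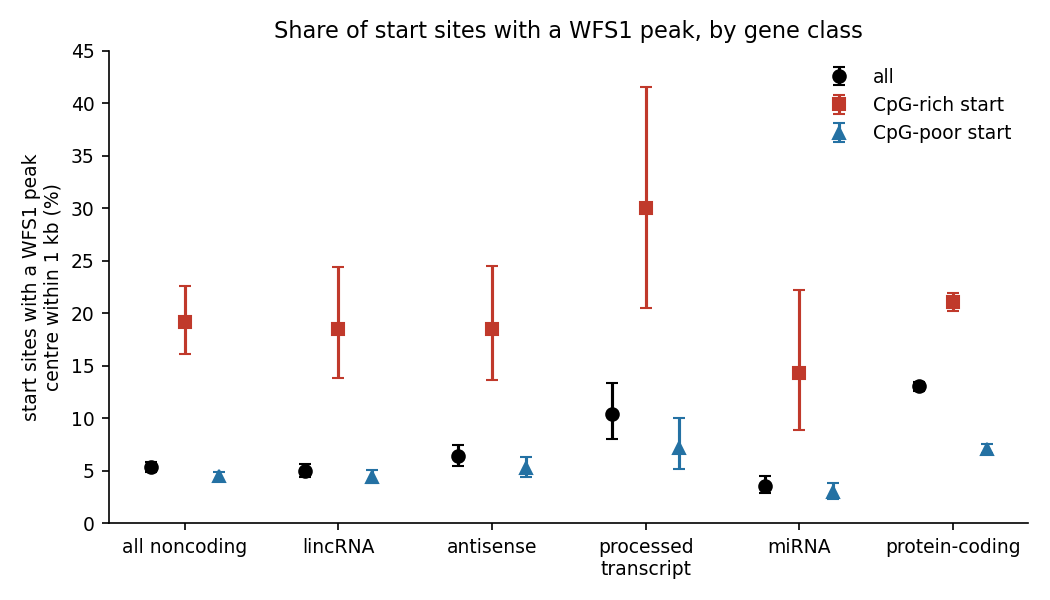
Share of start sites (percent) with a WFS1 peak centre within 1 kb for noncoding classes and protein-coding genes, with all starts in black, CpG-rich starts in red and CpG-poor starts in blue; bars are 95% Wilson intervals. CpG-rich starts lie above CpG-poor starts in every class, for example 14.3% against 2.95% for miRNA and 30% against 7.19% for processed transcripts.

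Peaks were concentrated at the starts rather than spread over the surrounding region. To keep protein-coding promoters out of view, the 6525 noncoding starts more than 20 kb from a protein-coding 5′ end were examined in bins of 500 bp. The 2 bins within 500 bp of the start held on average 17.5 peak centres per 1000 starts and the flanks 6.32, a ratio of 2.78. At protein-coding starts the same values were 47.7 and 6.33, a ratio of 7.54. The 271 CpG-rich starts of the far noncoding group reached 62.7 per 1000 starts (ratio 9.44) and the 6254 CpG-poor ones 15.6 (ratio 2.47). The CpG-rich value rests on few peaks, 15 in the bin just upstream and 19 in the bin just downstream.

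**Figure D2:**
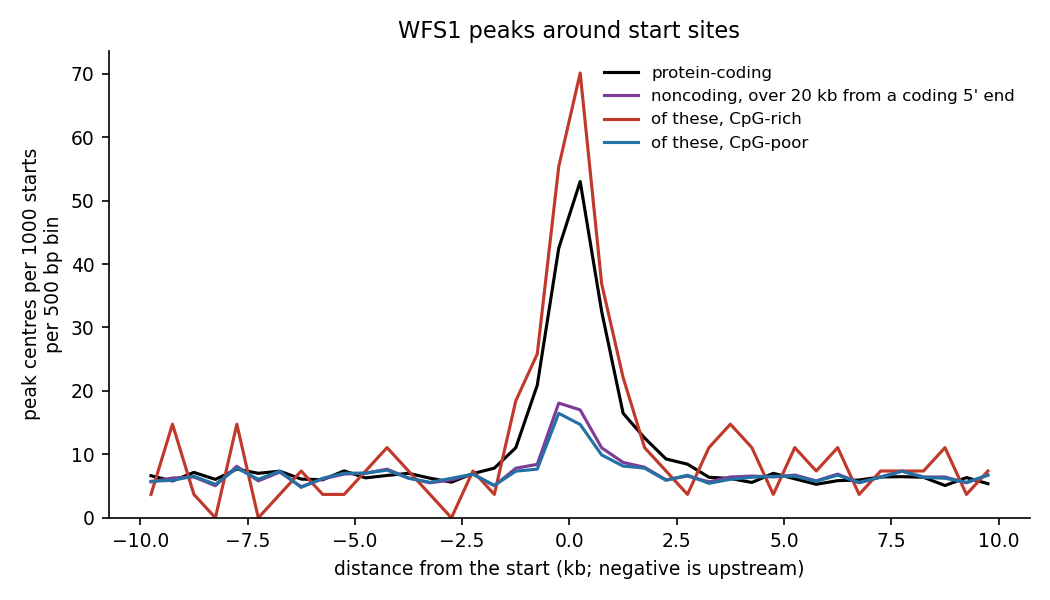
WFS1 peak centres per 1000 starts in bins of 500 bp against the distance from the start in kb (negative is upstream), for protein-coding starts and for noncoding starts more than 20 kb from a protein-coding 5′ end, all and split by CpG content. All 4 lines peak at the start, at 70.1 for CpG-rich and 16.5 for CpG-poor noncoding starts and at 53.0 for protein-coding starts.

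Around the start the 573 peaks divided evenly within counting error, with 282 centres upstream (49.2%, 45.1 to 53.3). Among those in the 36-cycle list alone, 46 of 119 were upstream (38.7%, 30.4 to 47.6), 14.0 points below those called after 30 cycles only (difference -14.0, -24.4 to -3.08). With 1 library per condition this describes the lists and not an effect of sonication. The start base itself was covered by 185 peaks (32.3%). It was covered by 49.3% of peaks in both lists, 26.1% of those from 30 cycles only and 14.3% of those from 36 cycles only, in the order of their widths. Of all centres, 343 (59.9%) lay between protein-coding genes and 194 (33.9%) in a protein-coding gene on the opposite strand. A further 32 lay in a protein-coding gene on the same strand, 30 of which were at miRNA hairpins inside a host gene. The annotation is divided in a similar way. Of the 9564 eligible noncoding starts, 6081 lay between protein-coding genes, 2477 in one on the opposite strand and 949 in one on the same strand. Of those 949 starts, 822 were miRNA hairpins.

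Peaks at noncoding starts were found in both libraries more often than peaks at protein-coding starts. Both lists held 213 of the 573 (37.2%, 33.3 to 41.2), beside 35.6% of all autosomal peaks. The difference from the 18640 remaining peaks was -0.483 points (-4.40 to 3.61), and the share exceeded that of the 2807 protein-coding start peaks by 15.4 points (11.2 to 19.7). Peaks called after 30 cycles only numbered 241 (42.1%) and after 36 cycles only 119 (20.8%). LincRNA peaks were in both lists in 113 of 275 cases (41.1%), antisense in 57 of 162, miRNA in 26 of 75 and processed transcripts in 17 of 61 (27.9%, 18.2 to 40.2), with intervals that overlap.

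The median width was 409 bp, with quartiles of 284 and 590 bp and a range of 195 to 2576 bp. Of the 573, 54.5% were wider than the median autosomal peak of 378 bp, 12.8 points (8.32 to 17.2) more than at protein-coding starts and 3.48 points (-0.672 to 7.58) from the remaining peaks. Peaks in both lists had a median of 647 bp, those from 30 cycles only 353 bp and those from 36 cycles only 259 bp. A combined peak spans every peak that it joins, so those in both lists are wider in part by construction. The median GC content, 50.3%, lay between that of protein-coding start peaks (58.4%) and of remaining peaks (46.2%).

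**Figure D3:**
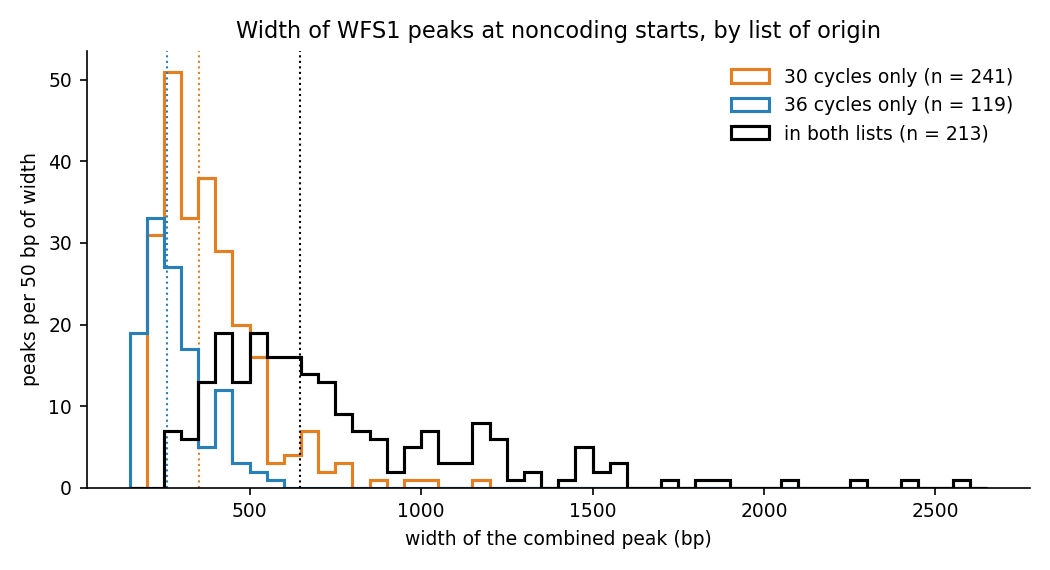
Number of WFS1 peaks at noncoding starts per 50 bp of width against the width of the combined peak in bp, for 241 peaks from 30 cycles only, 119 from 36 cycles only and 213 in both lists; dotted lines are medians. The medians are 353, 259 and 647 bp, and the 10 widest peaks, up to 2576 bp, are all in both lists.

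In the central 200 bp, the shares of peaks with an AP-1, SP, ETS or TATA site lay between those of protein-coding start peaks and remaining peaks. For these motifs both differences had intervals on 1 side of 0. No searched word contains another. The AP-1 site, bound by FOS and JUN dimers, was in 73 of 573 (12.7%, 10.3 to 15.7), beside 18% of all autosomal peaks. This was 7.44 points below the remaining peaks (difference -7.44, -9.99 to -4.40) and 8.36 points above protein-coding start peaks (5.74 to 11.4). Of 9053 noncoding starts without a peak, 4.12% had the site in the 200 bp around the start, and of all protein-coding starts 2.81%. The E-box CAGCTG, read by basic helix-loop-helix factors such as MyoD, was in 103 (18.0%, 15.0 to 21.3), beside 18% of all autosomal peaks, which was -1.10 points (-4.08 to 2.30) from the remaining peaks, 7.15 points (3.98 to 10.7) above protein-coding start peaks and 4.10 points (1.09 to 7.53) above noncoding starts without a peak. The RUNX site was in 159 (27.7%, 24.2 to 31.6), beside 28.4% of all autosomal peaks, -1.91 points (-5.48 to 1.95) from the remaining peaks and 7.83 points (4.01 to 11.9) above protein-coding start peaks. It exceeded noncoding starts without a peak by 11.3 points (7.67 to 15.1). Windows of peaks were centred on the peak and windows of starts without a peak on the start. The comparisons of AP-1, E-box and RUNX with such starts therefore also differ in position. The SP site GGGCGG of GC-rich promoters was in 14.1%, against 30.5% at protein-coding start peaks and 5.09% of remaining peaks. In the same order, the ETS site CCGGAAG was in 2.09%, 5.52% and 1.13%, and TATAAA in 7.85%, 4.38% and 10.9%. The TEAD site CATTCC was in 15.0%, 9.33% and 16.5%, and its difference from the remaining peaks had an interval that includes 0. The NRF1 motif was in 0 of 573, beside 7 of 22020 autosomal peaks (0.0318%). The count of 0 allows a share of up to 0.524% by the limit of 3 counts and 0.666% by the Wilson interval. None of AP-1, E-box and RUNX was found in 306 peaks (53.4%), beside 49.4% of all autosomal peaks. This share was 46.3% among the remaining peaks and 69.0% among protein-coding start peaks.

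**Figure D4:**
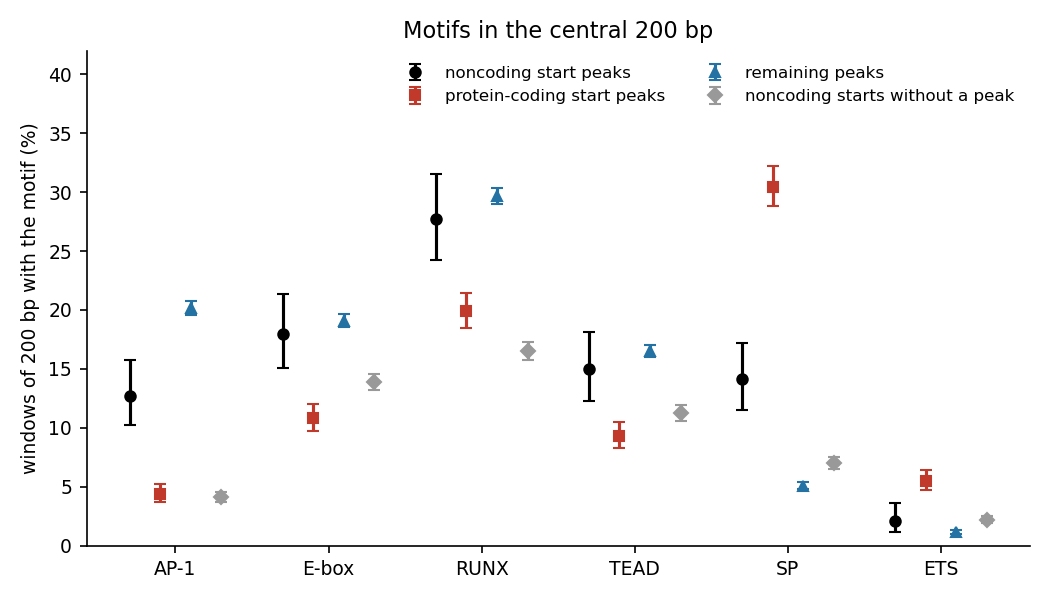
Share of 200 bp windows (percent) with each motif in peaks at noncoding starts, protein-coding start peaks, remaining peaks and noncoding starts without a peak. Windows are centred on the peak, or on the start where there is no peak, and bars are 95% Wilson intervals. For AP-1 the peaks at noncoding starts lie at 12.7%, between 4.38% at protein-coding start peaks and 20.2% in remaining peaks, and for SP at 14.1%, between 30.5% and 5.09%.

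The CpG content of the start divided the peaks into groups of different composition. AP-1 was in 4 of 141 peaks at CpG-rich starts (2.84%) and 69 of 432 at CpG-poor starts (16.0%), a difference of -13.1 points (-17.3 to -7.86). The E-box fell on the same side, at 10.6% against 20.4% (-9.73, -15.5 to -2.62), and SP on the other, at 27.0% against 9.95% (17.0, 9.63 to 25.2). The groups were set by GC and CpG content. The SP word holds only G and C with a CpG, and the AP-1 and E-box words hold no CpG. These differences are therefore not independent of the grouping. For RUNX the difference was -5.76 points (-13.4 to 2.90). Peaks at CpG-rich starts were in both lists less often, 24.8% against 41.2% (-16.4, -24.3 to -7.41). Peaks at CpG-rich noncoding starts differed from those at CpG-rich protein-coding starts by -0.176 points for AP-1 (-2.11 to 4.11) and by 4.47 points for the share in both lists (-2.19 to 12.4), and were wider than the median peak more often, by 14.2 points (5.69 to 22.5). At CpG-poor starts the same comparison gave 8.76 points for AP-1 (5.10 to 12.8), 6.93 for the E-box (2.68 to 11.5), 7.75 for RUNX (2.81 to 12.9), -15.8 for SP (-19.7 to -11.6) and 16.5 for the share in both lists (11.1 to 21.9). Peaks at CpG-poor noncoding starts differed from the remaining peaks by -4.20 points for AP-1 (-7.41 to -0.409), 1.29 points for the E-box (-2.28 to 5.38) and -0.490 points for RUNX (-4.63 to 4.01).

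Motif content also went with the list. The E-box was in 24.4% of peaks in both lists and 14.2% of those in 1 list, a difference of 10.2 points (3.63 to 17.2). For AP-1 the values were 16.0% and 10.8%, with a difference of 5.13 points (-0.508 to 11.3) that includes 0. The difference was 6.75 points (0.670 to 13.3) for TEAD, 6.65 (-0.912 to 14.4) for RUNX and -5.31 (-10.7 to 0.658) for SP. All 5 peaks with AP-1, E-box and RUNX together, at Gm12092, B430319H21Rik, AC166654.1, 1700019G24Rik and Gm45830, were in both lists. These genes were named after their values were seen, and their count describes these 5 peaks only. The share in both lists was 37.2% of the 573 peaks and 35.6% of all autosomal peaks.

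Among the 75 peaks at miRNA hairpins, the muscle-specific Mir206 carried 2. The upstream peak (chr1:20677924-20678346, 423 bp) was in both lists, held the E-box shown above and was centred 875 bp before the hairpin. The other (chr1:20678729-20679132, 404 bp) was called after 30 cycles only, was centred 79 bp before the hairpin start and contained both mature sequences. Its neighbour Mir133b, from the same cluster, had its nearest peak centre 3.84 kb away. Of a list of muscle miRNAs, Mir206 and Mir378a were the 2 of 12 eligible starts (16.7%) with a peak. This stands beside 5.12% of all eligible noncoding starts and 3.58% of eligible miRNA starts, the latter counting any peak. Mir378a, in an intron of Ppargc1b, had a peak of 249 bp from 30 cycles only, centred 815 bp upstream. For Mir486, an erythroid and muscle miRNA, the nearest peak centre was 1.93 kb away, and for Mir1a-1, a miRNA of differentiated muscle, 83.3 kb.

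Of a list of other miRNAs studied in myoblasts, 7 of 41 eligible starts (17.1%) had a peak, beside the same 5.12% and 3.58%. Both miRNA lists were written with earlier results of these data known and hold well studied genes, so their counts describe these lists only. Mir199a-2 and Dnm3os, the antisense RNA of Dnm3 that carries it, had separate peaks with different lists. The Dnm3os peak (chr1:162217319-162217663, 345 bp) came from 30 cycles only and the Mir199a-2 peak (chr1:162217697-162217959, 263 bp) from 36 cycles only, with 33 bp between them. The latter contained both arms of miR-199a. Mir125b-1 had 2 peaks of 503 and 195 bp, both from 36 cycles only. Peaks in both lists lay 564 bp downstream of the Mir29a start (517 bp wide, and within 1 kb of Mir29b-1) and 952 bp upstream of Mir30a (833 bp wide). Mir21a, in the host gene Vmp1, had a peak of 418 bp and Mir22 a peak of 195 bp, both from 36 cycles only and upstream of the hairpin.

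Whole mature sequences lay inside a peak at 12 of the 37 miRNA genes with a sequence. The nearest hairpin starts were Mir6416 (2 bp from the centre of a 197 bp peak, 36 cycles only, with AP-1 and RUNX) and Mir132 (7 bp, 413 bp wide, 30 cycles only, 68.8% GC with RUNX). Mir6406, on the opposite strand of Ntn1, had a peak of 680 bp in both lists with AP-1 and E-box. Mir763 in Hmga2 had an AP-1 site in a peak of 521 bp from 30 cycles only, and Mir6950 in Loxl2 had E-box and RUNX in a peak of 653 bp in both lists. The other nearest hairpins, at distances of 13 to 179 bp, were Gm23935, Mir3470a, Gm24105, Mir8120, Gm47305, Gm25690, Gm24082 and Mir7655.

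Long noncoding RNAs known by name had a peak at 15 of 43 eligible starts (34.9%), set beside 5.12% of all eligible noncoding starts. The list was written with earlier results of these data known, and well studied RNAs were chosen for it, so the count describes this list only. Both abundant nuclear RNAs of chromosome 19 were included. Malat1, retained in nuclear speckles, had a peak of 680 bp in both lists centred 572 bp upstream of its start, with a RUNX site, and a peak of 215 bp from 36 cycles only centred 972 bp downstream. Neat1, the scaffold of paraspeckles, had an 888 bp peak in both lists that covered its CpG-rich start. The protein-coding 5′ end nearest to the Neat1 peak was that of Frmd8, 29.9 kb away.

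Several of the other named RNAs neighbour regulators of growth. Pvt1, downstream of Myc, had a peak of 647 bp, Trp53cor1, beside the cell cycle inhibitor gene Cdkn1a, a peak of 704 bp over its start, and Lockd, beside Cdkn1b, a peak of 765 bp centred 714 bp upstream. All 3 were in both lists, and those at Pvt1 and Lockd held a RUNX site. Dleu2, the host of miR-15a and miR-16-1, had a 664 bp peak over its start from 30 cycles only and a 200 bp peak from 36 cycles only. Hotair in the HoxC cluster and Lncpint each had a peak from 36 cycles only, of 195 and 312 bp. The small nucleolar RNA host genes Snhg6, Snhg12 and Snhg15 had peaks from 30 cycles only, of 378, 762 and 672 bp, and Snhg8 and Snhg17 from 36 cycles only, of 271 and 195 bp. Epb41l4aos had a 270 bp peak from 30 cycles only. No peak lay within 1 kb of the imprinted H19, whose nearest peak centre was 27.0 kb away, or of Meg3, at 604 kb.

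**Figure D5:**
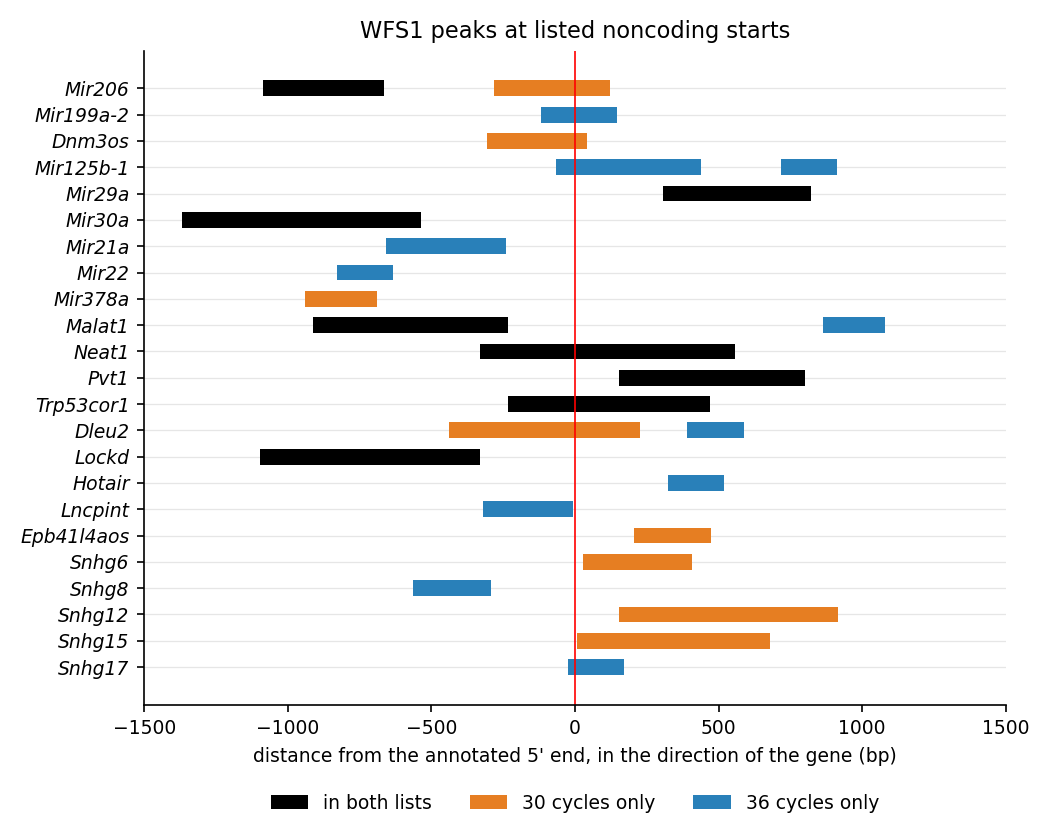
Peaks at the listed miRNA and long noncoding starts, drawn to scale against the distance in bp from the annotated 5′ end in the direction of the gene (red line); black bars are in both lists, orange from 30 cycles only and blue from 36 cycles only. Mir206, Mir125b-1, Malat1 and Dleu2 have 2 peaks each, and the Neat1, Trp53cor1 and Dnm3os peaks cover the start.

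RNAs named for the gene on the opposite strand lay beside several regulators, which were named after their values were seen. Such genes, with a name ending in os or in os and a number, had 23 peaks at 19 genes. Of 209 eligible starts with such a name, 18 (8.61%) had a peak, beside 5.12% of all eligible noncoding starts, and 5 of the 23 peaks (21.7%) were in both lists, beside 35.6% of all autosomal peaks. Runx2os1 had peaks of 375 and 195 bp and Runx2os2 a peak of 456 bp, all inside Runx2, a RUNX factor of bone. Sox5, a SOX factor gene, held 3 peaks at Sox5os1, Sox5os3 and Sox5os5. Zeb2os, opposite the repressor gene Zeb2, had a 572 bp peak in both lists, and Chrna1os, beside the muscle acetylcholine receptor gene Chrna1, a 545 bp peak from 30 cycles only. Across the 573 peaks, the nearest protein-coding gene was a myogenic regulator for 3 (0.524%, against 0.654% of all autosomal peaks), namely Mef2c, Snai1 and Srf. It was an AP-1 factor for 2 (0.349%, against 0.159%), both at Junos, centred inside Jun on the opposite strand and 94 bp apart. It was an actin or adhesion gene for 4 (0.698%, against 0.976%).

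Zmiz1 held more of these peaks than any other protein-coding gene, 5, of which 3 were at Zmiz1os1. Zmiz1os1 (195, 223 and 420 bp) was 1 of 6 starts with 3 peaks, with 4932422M17Rik, AC132288.1, AL805899.1, Gm17057 and Gm5444, and each of the 6 starts had peaks from more than 1 list category. Gm17057 lies opposite Lima1, which encodes an actin-binding protein, and had 1 peak of 1042 bp in both lists and narrower ones of 241 and 351 bp. In all, 64 genes had 2 or more peaks, which together made up 134 of the 573. Neighbouring peaks at the same gene lay a median of 245 bp apart (quartiles 126 and 384 bp), and the closest pair, at AL805899.1, was separated by 3 bp with the peaks from different lists. Of the 58 genes with 2 peaks, 17 had 1 from 30 cycles only and 1 from 36 cycles only.

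A peak called in 1 list often had a peak of the other list nearby. Of the 119 peaks from 36 cycles only, 49 (41.2%, 32.7 to 50.2) had within 1 kb, edge to edge, a peak holding the 30-cycle list, and 48 of the 241 from 30 cycles only (19.9%, 15.4 to 25.4) had a peak holding the 36-cycle list. The shares were higher than among the remaining peaks, by 9.88 points (1.30 to 18.99) and 6.97 points (2.36 to 12.5), and higher than at protein-coding starts, by 11.3 points (2.03 to 20.9) and 5.14 points (0.238 to 10.9). Absence of a peak from a list thus did not always mean that this list had no peak within 1 kb of that peak. The distance of the second peak from the start was not measured here.

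The widest peak was at the lincRNA Gm19276 (chr15:10814156-10816731, 2576 bp), 101 kb from the 5′ end of Rai14. Mir3109, inside the annexin gene Anxa2, followed with 2441 bp, then Gm13470 with 2266 bp, Gm16046 with 2057 bp and AY036118 with 1860 bp. The AY036118 peak (chr17:39847039-39848898) overlapped 1789 bp of an annotated ribosomal RNA gene, and ribosomal RNA genes have many copies, so the position of reads in this peak is uncertain. The other widest peaks, at Gm20652, 2410080I02Rik, Gm47216, AC166654.1 and Gm11840, measured 1556 to 1818 bp. All 10 were in both lists.

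Gm13470 was also the peak farthest from any protein-coding 5′ end, 1326 kb from Zeb2. It was followed by Gm26578 at 821 kb, both peaks of Gm29137 at 808 and 807 kb, and Gm6634 at 800 kb, each in 1 list only. Over all 573 the median distance to a protein-coding 5′ end was 32.7 kb (quartiles 7.38 and 80.4 kb). The peak nearest to a noncoding start, at Gm44507, was centred on the annotated base itself, measured 657 bp, was in both lists and held an AP-1 site. At the limit of 1 kb, the farthest peak kept was at Gm42797 (995 bp), followed by 5 peaks at 993 bp, among them those of B930059L03Rik and Gm13481, and the nearest left out were at E230016K23Rik (1006 bp), A930001C03Rik and 4930473D10Rik (both 1007 bp).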

How the data were processed

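Per the study's methods, the authors used NextGenMap for mapping to the mouse genome, SAMtools to drop poorly placed reads and MACS2 to call peaks in each library without pooling. The control used in calling is not given in the sources used here. The deposited lists hold only peak positions on GRCm38 (printed from 1), without any score, signal or count, so depth is unknown and no value is normalized for it.

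The lists of 30 and 36 cycles (18283 and 12674 peaks) were joined with bedtools merge (2.31.1). Genes came from GENCODE mouse release 21, with 1 start per gene, an earlier release than the annotation of the study. A peak was assigned by its centre. Motifs were searched on both strands in the central 200 bp of GRCm38.p6, and mature miRNAs were taken from RefSeq. Wilson and Newcombe intervals (scipy 1.17.1) cover counting error, and peaks near each other are not independent. The joining, assignment and intervals were tested on simulated data. The motif search was tried there with placed AP-1 sites only and with no other motif.

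Genes named are those of the fixed lists, the 10 widest peaks, the 15 miRNA starts nearest to a peak, starts with 3 or more peaks, the 3 peaks on each side of the 1 kb limit, the peak nearest to a start and the 5 peaks farthest from protein-coding 5′ ends, and other names are marked where they appear. The peaks and lists were chosen with earlier results of these data known. Alternatives were other distances, starts, gene classes, lists, motif windows and repeat filters, and the alternatives for differences between sets were added after the data were seen. The sex chromosomes and the mitochondrial genome were left out by the rule. Python 3.11.15, numpy 2.4.6, pandas 2.3.3 and matplotlib 3.10.9 were used.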

Additional observations from a re-analysis of the deposited data

How the results depend on the processing

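Alternatives were run for the shares in both lists, with AP-1, E-box or RUNX and wider than the median. They were also run for starts with a peak, noncoding against protein-coding, and for CpG-rich starts with and without a peak. No difference in these measures whose interval lay on 1 side of 0 changed sign. Other differences, such as those between noncoding classes, between CpG groups and between lists, had no alternative run. The same holds for SP, ETS, TATA and TEAD and for nearby peaks of the other list. Of the differences from the remaining peaks whose interval includes 0, the share in both lists (-0.483 points) was 0.081 to 2.35 points under 7 alternatives, RUNX (-1.91) was 0.0409 and 0.284 under 2, and the E-box (-1.10) was 0.932 under 1, each again with an interval that includes 0. The number of peaks was 361 within 500 bp of a start, 915 within 2 kb, 354 with the 36-cycle list alone and 245 without a repeat base in the central 200 bp. It was 450 at more than 5 kb from protein-coding 5′ ends, 462 with the 30-cycle list alone and 503 without miRNA genes. With the 5′ end of every transcript it was 557, by the nearest edge 645 and with all long classes added 684. The share in both lists was 47.8% of peaks of the 30-cycle list alone and 66.4% of the 36-cycle list alone, where each is taken over fewer peaks, and 41.2% without a repeat base. The median width was 346 bp with the 36-cycle list alone, and the E-box share was 22.9% without a repeat base. With the motif window changed to the whole peak or to the central 100 bp, AP-1 was in 27.4% or 6.46%, the E-box in 35.4% or 10.3% and RUNX in 45.9% or 14.3%. The share of noncoding starts with a peak was 3.65% at 500 bp, 7.61% at 2 kb, 4.59% with the 30-cycle list alone, 3.36% with the 36-cycle list alone and 2.01% where the peak had to cover the start base, beside 9.14%, 15.6%, 10.8%, 5.82% and 3.53% of protein-coding starts. The excess of wide peaks over the remaining peaks had an interval above 0 within 500 bp (6.39 points), with all long classes added (3.89 points) and by the nearest edge (5.92 points). Of the other 65 planned values and 114 added ones, all but counts of peaks kept the same call or moved within their interval. Counts of peaks have no interval, and the cause of the changes was not tested.

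No paired analysis was possible because only 1 library stood for each sonication condition, and no p-value was computed. Stricter peak calls were not tried because no score came with the lists. With the depth unknown, a start without a peak cannot be told from a start below detection, and a difference between the lists cannot be told from a difference in depth.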
